A study of Mus musculus with 16 samples.

Results

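Collagen genes were followed through mouse embryonic gonads that carried or lacked Wnt4. Members were all genes whose symbol in the probe-set annotation reads Col, a number, the letter a and a number. This gave 42 genes, represented by 82 probe sets, out of 18193 genes named by 1 symbol on the array. Where a gene had several probe sets, the one of highest mean stood for it. A probe set entered the test if its intensity lay above the array median in at least 2 of the 16 arrays, and 34 of the 42 collagen genes and 12332 genes in all did so.

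The study hybridised total RNA of embryonic gonads to Affymetrix Mouse430_2 arrays, on which each probe set reports transcripts of 1 or more genes as a fluorescence intensity. There were 8 groups of 2 arrays each. They were wild-type ovary, Wnt4 knock-out ovary, wild-type testis and Wnt4 knock-out testis, each at embryonic day 12.5 (E12.5) and at E14.5. The labels give a genotype of wild type or Wnt4 knock-out, no strain and no treatment, and they do not say whether the knock-out removes Wnt4 from every cell or whether a sample is 1 embryo or a pool. The source name of the male samples is testis but their titles say ovary, and Xist and Y-linked transcripts put all of them with the males. Biological replicate is the labels' term for both arrays of a group.

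Collagens are secreted proteins built from 3 chains that wind into a triple helix. Fibrillar collagens (types I, II, III, V, XI) form the cables of connective tissue, type IV forms the sheet of basement membranes, and type VI forms beaded microfilaments around cells. FACIT collagens such as type IX sit on fibril surfaces, and transmembrane collagens such as types XIII and XXV stay anchored in the cell membrane. In the fetal testis, Sertoli cells and peritubular cells lay down a basement membrane around the testis cords, while the ovary forms its cord structures later. Types II and IX are best known from cartilage, where SOX9 drives their genes, and SOX9 is also the factor that specifies Sertoli cells. Wnt4 encodes a secreted signal of the early ovary.

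The promoters of 4 collagen genes that changed between the stages are shown, 3 that rose and Col9a1, which fell and has 2 annotated starts. Each sequence is the 250 bases before a transcription start, from RefSeq on build GRCm38.p6, with capitals where CCAAT occurs on either strand, and likewise where the GC box letters GGGCGG occur. Col6a1 (chr10:76726045-76726294) and Col6a2 (chr10:76623631-76623880) lie near each other on the minus strand, Col1a2 (chr6:4505368-4505617) and Col9a1 (chr1:24177360-24177609 and chr1:24194953-24195202) on the plus strand. Col6a2 has a second listed start close by, and the outer one is shown.
Col6a1: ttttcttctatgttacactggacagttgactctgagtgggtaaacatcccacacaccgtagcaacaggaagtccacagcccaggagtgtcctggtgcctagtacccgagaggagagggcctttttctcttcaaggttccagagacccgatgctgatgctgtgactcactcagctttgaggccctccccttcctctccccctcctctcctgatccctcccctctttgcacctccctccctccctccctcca
Col6a2: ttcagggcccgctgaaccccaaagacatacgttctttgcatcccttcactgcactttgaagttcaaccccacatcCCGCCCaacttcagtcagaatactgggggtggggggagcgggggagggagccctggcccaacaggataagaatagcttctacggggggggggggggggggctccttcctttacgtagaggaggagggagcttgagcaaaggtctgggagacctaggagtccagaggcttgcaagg
Col1a2: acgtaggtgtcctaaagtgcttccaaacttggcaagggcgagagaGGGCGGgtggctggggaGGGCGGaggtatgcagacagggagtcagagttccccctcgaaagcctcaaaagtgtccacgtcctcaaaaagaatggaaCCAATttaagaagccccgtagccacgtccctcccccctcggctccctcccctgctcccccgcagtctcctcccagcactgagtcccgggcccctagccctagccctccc
Col9a1, first start: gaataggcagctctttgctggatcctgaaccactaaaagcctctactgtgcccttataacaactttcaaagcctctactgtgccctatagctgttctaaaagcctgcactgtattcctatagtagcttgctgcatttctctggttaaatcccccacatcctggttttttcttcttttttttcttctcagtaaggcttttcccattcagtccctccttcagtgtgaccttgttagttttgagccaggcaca
Col9a1, second start: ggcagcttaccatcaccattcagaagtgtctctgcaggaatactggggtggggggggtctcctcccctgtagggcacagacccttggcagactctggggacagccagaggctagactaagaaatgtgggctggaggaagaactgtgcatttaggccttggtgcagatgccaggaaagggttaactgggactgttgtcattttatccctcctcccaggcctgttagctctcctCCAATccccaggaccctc

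The Col1a2 window held 1 CCAAT and 2 GGGCGG, the Col6a2 window 1 GGGCGG, the second Col9a1 window 1 CCAAT, and the Col6a1 and first Col9a1 windows neither. Of 36 promoter windows listed for 33 collagen genes, 36.1% held CCAAT, against 33.8% of all 32851 windows of this length, and 58.3% held GGGCGG, against 32.7%. The 2 starts of Col9a1 lie 17593 bases apart, and which transcript each probe set reads was not determined. Col4a1 and Col4a2 are a head-to-head pair, with listed starts 21 bases apart, and Col4a5 and Col4a6 are another, with starts 1343 bases apart. A match of letters is a description and no evidence of binding.

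Some arrays stood apart, and the values below are read with them in view. The E12.5 pair from wild-type testis was nearly the same on both arrays, with a standard deviation (SD) of their log2 differences of 0.142 against 0.335 to 0.587 in the other groups, and over the collagens 0.108. They may not be independent samples, so results that use them were repeated with the pair averaged into 1 array. Y-linked transcripts in 4 of the 8 ovary arrays corresponded to 6.95% to 19.9% of the level in testis, and Xist in the testis arrays WT replicate 2 and knock-out replicate 2 at E14.5 to 22.8% and 16.5% of the ovary level. The 3′ to 5′ signal ratio of control transcripts, a measure of RNA integrity, was 1.76 to 2.27 in 3 of the 8 arrays at E12.5 and at most 1.36 in all others. In bulk tissue, fewer cells of a type and less RNA per cell cannot be told apart. Wnt4 itself, the deleted gene, was 1138 and 1151 in the 2 wild-type ovary arrays at E14.5 and 351 and 302 in the knock-out, a 3.48-fold fall (limma, adjusted p = 0.0445). In ovary at E12.5 it was 844 and 1822 in wild type and 839 and 520 in the knock-out, so the lower wild-type array lay just above the higher knock-out array, and the difference was not called. In E12.5 testis it was 502 and 473 in wild type against 413 and 231 in the knock-out. In E14.5 testis it was 753 and 512 in wild type against 277 and 371 in the knock-out. Whether its probe set lies in the deleted part is not stated.

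**Figure D1:**
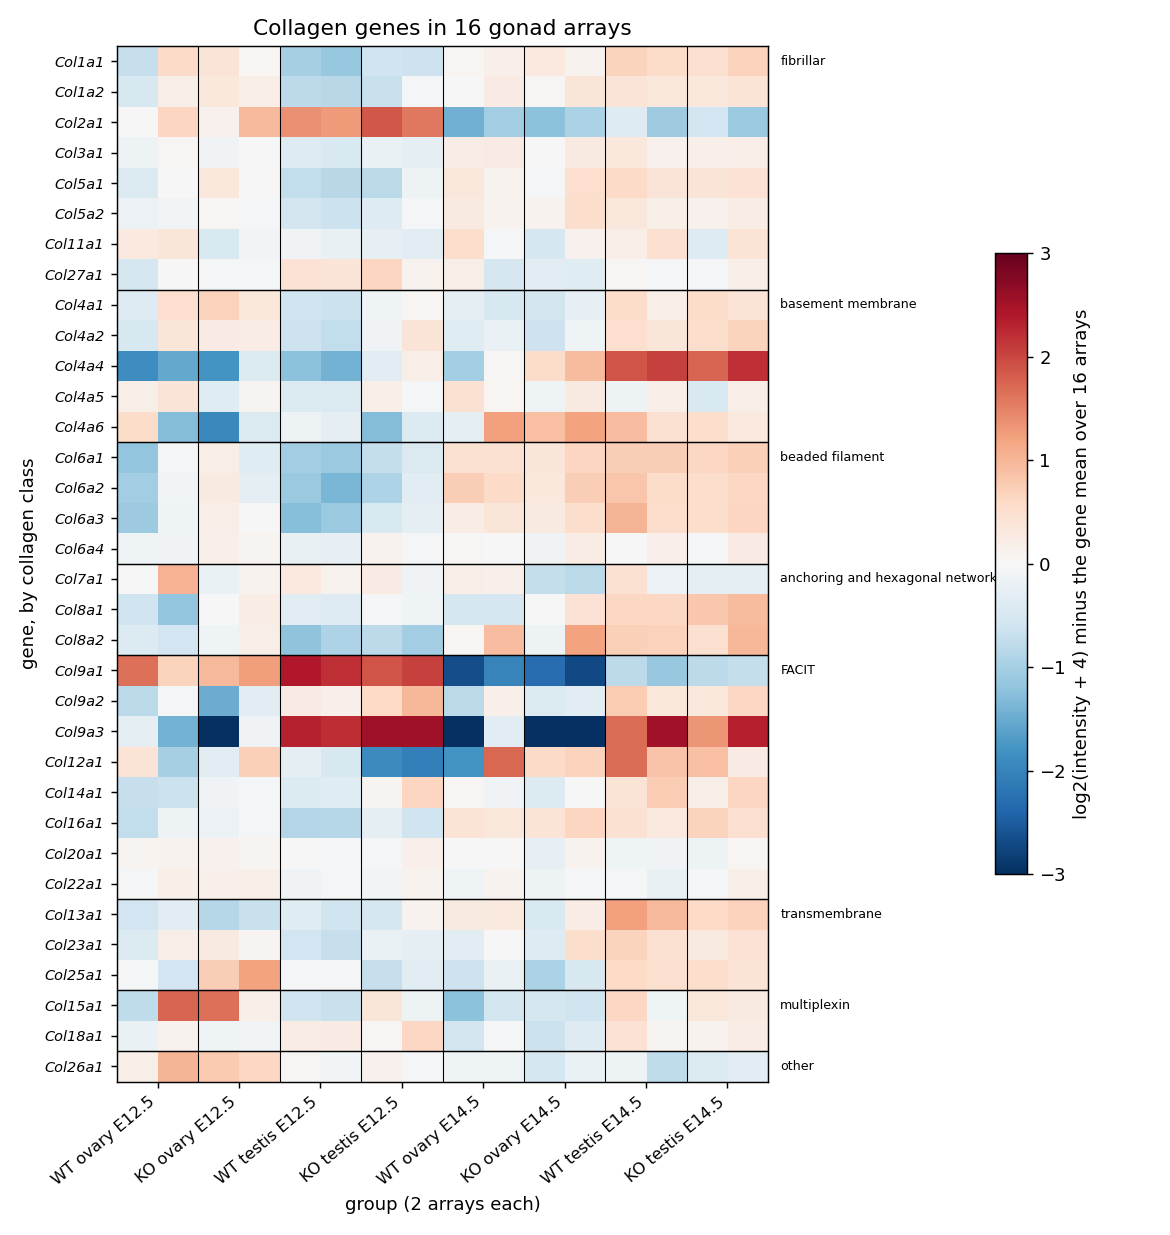
Level of the 34 tested collagen genes (rows, by collagen class) in 16 arrays (columns, 2 per group), as log2(intensity + 4) minus the mean of the gene over all arrays; the colour scale is clipped at both ends, which affects only Col9a3 in the 4 ovary arrays where it was 6.83 to 12.8. The rows of Col1a1, Col6a1, Col6a2 and Col6a3 are below their mean in wild-type testis at E12.5 and above it in testis at E14.5, while Col2a1 and Col9a1 run the other way.

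The brightest probe set among the collagens was that of Col3a1, the chain of fibrillar type III, at 7885 to 13430 over the 16 arrays, and Col1a2 of type I reached 2890 to 6913. Levels of different probe sets cannot be set against each other as amounts of RNA. For 16 of the 34 tested collagens the highest group mean was in testis at E14.5, and for 15 the lowest was in wild-type testis at E12.5. The latter group is the near-identical pair. Such counts were not made over all genes, so they do not set the collagens apart. The heat map of all 34 genes shows a turn from blue to red in the testis columns for such genes.

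Between E12.5 and E14.5 many collagens rose in wild-type testis. Of the 34, 17 rose and 2 fell at an adjusted p below 0.05 in limma (Benjamini-Hochberg over 12332 genes), beside 6.73% of all genes higher and 3.86% lower. The median change of the 34 was 0.89 on the log2 scale, against 0.07 over all genes. Fold changes are of intensity + 4 throughout, which understates dim genes. With the 2 near-identical arrays averaged, 12 of the 19 calls remained, and 9 remained whichever compared array was left out. These 9 were Col1a1, Col2a1, Col4a4, Col6a1, Col6a2, Col6a3, Col9a1, Col13a1 and Col16a1.

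Type VI collagen rose as a set of chains in testis, and its α chains assemble together. Col6a1 was 1012 and 971 in E12.5 wild-type testis but 3513 and 3520 by E14.5, 3.54-fold higher (log2 change 1.82 ± 0.28 SE, adjusted p = 0.00135, limma). Col6a2 went from 901 and 747 to 3486 and 2840, 3.82-fold (1.93 ± 0.29, adjusted p = 0.00117). Col6a3 went from 339 and 379 to 1673 and 1174, 3.88-fold (1.96 ± 0.26, adjusted p = 0.000578). In each of the 3 genes the lower E14.5 array was above both E12.5 arrays, though the share of all genes without such overlap is not given. A second Col6a2 probe set rose by 2.27 on the log2 scale. Col6a4, another type VI chain, stayed between 5.78 and 9.97 in every array.

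Fibrillar chains rose as well. Col1a1, the α1 chain of type I collagen, went from 1426 and 1284 to 4507 and 4185 in wild-type testis, 3.20-fold higher (1.68 ± 0.28, adjusted p = 0.00236, limma), and its second probe set rose by 0.74. Col1a2, its partner chain, rose 2.26-fold, Col5a1 2.43-fold, Col5a2 1.80-fold and Col3a1 1.56-fold. Col5a1 and Col5a2 encode type V, which sits in the core of type I fibrils. Of the 8 fibrillar genes tested 5 rose and 1 fell. The calls of Col1a2, Col3a1, Col5a1 and Col5a2 ended when replicate 2 at E12.5 was left out, with adjusted p of 0.053, 0.0528, 0.057 and 0.0661. Of the other 2 Col1a2 probe sets 1 changed by 1.17 and 1 by -1.15.

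The largest rise in wild-type testis was that of Col4a4, a type IV chain of specialised basement membranes. It went from 9.64 and 8.00 to 115 and 129, 9.85-fold higher (3.30 ± 0.42, adjusted p = 0.000405, limma). Its other 2 probe sets rose by 1.51 and 2.82. The widespread type IV chains Col4a1 and Col4a2 rose 1.98-fold and 2.16-fold, from means of 2550 and 821 to 5102 and 1780. Neither call held with the near-identical arrays averaged. Col4a3, the usual partner of Col4a4, did not pass the filter and reached 10.7 at most, and Col4a5 and Col4a6 did not pass the test.

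Other collagens that rose in wild-type testis were of the membrane, surface and network classes. Col13a1, a transmembrane collagen of cell adhesion sites, went from 230 and 195 to 706 and 590, 3.02-fold higher (1.59 ± 0.26, adjusted p = 0.00199, limma). Col16a1, a FACIT collagen, went from 192 and 194 to 487 and 438, 2.37-fold higher (1.24 ± 0.21, adjusted p = 0.00282). Col8a1 and Col8a2, the chains of the hexagonal type VIII network, rose 1.98-fold and 3.41-fold, Col14a1 1.97-fold and Col23a1 2.29-fold. Each of these last 4 lost its call with the near-identical arrays averaged.

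Col9a1 and Col2a1 were the 2 collagens that fell, and 15 of the 34 gave no call. Col9a1, the α1 chain of type IX, was 528 and 459 in E12.5 wild-type testis but 54.3 and 42.0 by E14.5, 9.58-fold lower (-3.26 ± 0.33, adjusted p = 8.33e-05, limma). Its second probe set fell by 1.14 on the log2 scale. Col2a1, the type II chain, went from 107 and 100 to 28.9 and 16.6, 4.15-fold lower (-2.05 ± 0.35, adjusted p = 0.00267). Col9a3, the α3 chain of type IX, went from 892 and 840 to 573 and 1038, with overlap between the stages (1.12-fold lower, adjusted p = 0.937). Col9a2 went from 50.1 and 47.2 to 73.8 and 53.8 and was not called.

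**Figure D2:**
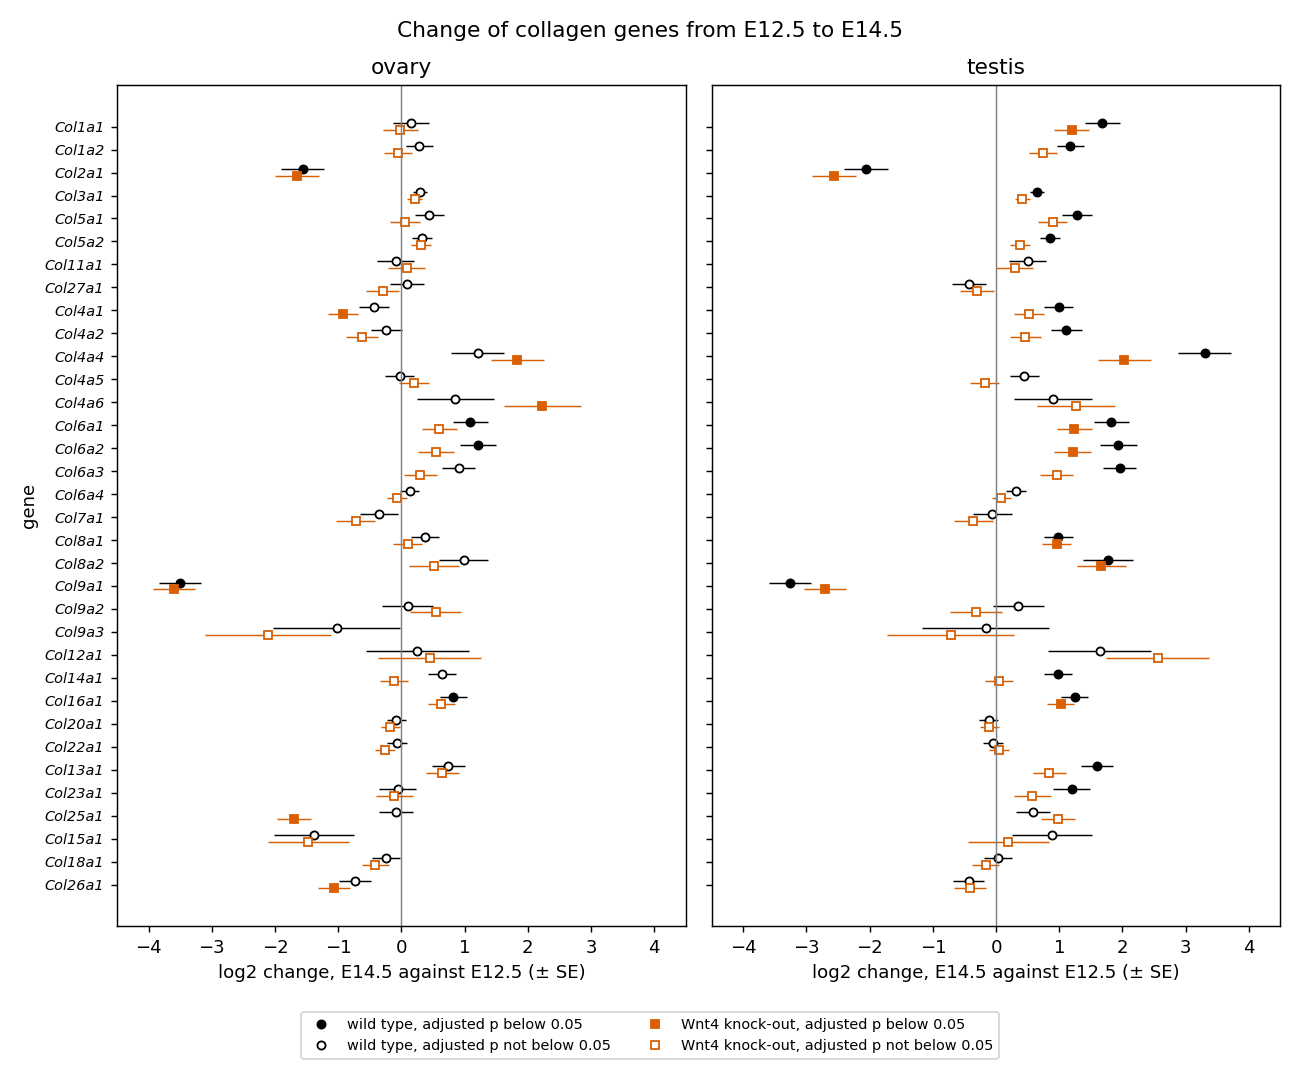
Log2 change from E12.5 to E14.5 (horizontal axis, ± SE of the fit, zero marked) of the 34 tested collagens in ovary (left) and testis (right), black for wild type and orange for Wnt4 knock-out; filled symbols have an adjusted p below 0.05. Filled black symbols lie right of zero for 17 genes in testis and for 3 in ovary, and Col9a1 and Col2a1 lie left of zero in all 4 comparisons.

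Knock-out testis, measured on 4 other arrays, gave fewer calls in the same directions. Of the 34 collagens 7 rose and 2 fell, beside 2.77% of all genes higher and 1.27% lower, with a median of 0.44 against -0.02 over all genes. Its choice followed a first look at the data. The 7 that rose were Col1a1, Col4a4, Col6a1, Col6a2, Col8a1, Col8a2 and Col16a1, all of them among the 17 of wild type (41.2% of the wild-type list and the whole knock-out list). The 2 that fell were again Col9a1 (6.53-fold) and Col2a1 (5.89-fold), whose calls held whichever compared array was left out. All 17 changes called in wild type had the same sign in the knock-out. Overlap and sign were not counted over all genes, so they do not set the collagens apart. Col1a1 went from 1894 and 1853 to 4005 and 4602, 2.29-fold higher (adjusted p = 0.0294, limma). The call of each of the 7 that rose was lost on leaving out at least 1 compared array, with folds of 1.83 to 4.76 then. Col6a2 and Col8a1 also lost theirs with the near-identical wild-type arrays averaged, and Col4a4, Col6a2, Col8a1 and Col8a2 without the E12.5 arrays of high 3′ to 5′ ratio.

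Wild-type ovary gave fewer calls than testis. There 3 rose and 2 fell, beside 2.51% of all genes higher and 1.86% lower, with a median of 0.12 against -0.04. Col6a2 went from 945 and 1843 to 3225 and 2916, 2.32-fold higher (1.21 ± 0.29, adjusted p = 0.0303, limma). Col6a1 went from 913 and 2022 to 2886 and 2900 (2.13-fold), and Col16a1 from 213 and 321 to 476 and 453 (1.76-fold). The calls of Col6a1 and Col16a1 were lost with the near-identical testis arrays averaged, at adjusted p of 0.0679 and 0.0824. The 2 E12.5 ovary arrays differed widely in all 3 genes, and without replicate 1 the folds were 1.66, 1.43 and 1.44 with no call.

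Col9a1 fell in ovary as in testis. It was 316 and 158 in E12.5 wild-type ovary but 11.97 and 21.0 by E14.5, 11.4-fold lower (-3.51 ± 0.33, adjusted p = 5.96e-05, limma), the one stage call in wild-type ovary that held without each compared array. Col2a1 fell from 38.3 and 63.7 to 11.8 and 16.7, 2.96-fold (adjusted p = 0.0204). Its call ended without replicate 2 at E12.5 (2.34-fold, adjusted p = 0.176) and without replicate 1 at E14.5 (2.59-fold, adjusted p = 0.173). Col1a1 gave no call, going from 1774 and 4263 to 2960 and 3145.

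In knock-out ovary 2 collagens rose and 5 fell between the stages, beside 5.33% of all genes higher and 8.47% lower, with a median of -0.04 against -0.10. Its choice also followed a first look at the data. Col9a1 fell from 194 and 239 to 16.9 and 11.6 (12.2-fold, adjusted p = 2.34e-05, limma) and Col2a1 from 43.2 and 80.2 to 14.2 and 18.2 (3.14-fold, adjusted p = 0.00879). Col25a1, a transmembrane collagen best known from neurons, fell from 308 and 426 to 91.8 and 129 (3.24-fold, adjusted p = 0.00149). Nerve and muscle markers were lower at E14.5 as well: the nerve sum over 5 genes went from 800 and 372 to 106 and 131, and the muscle sum over 8 genes from 492 and 1193 to 378 and 332. Of 5 tested nerve markers 4 fell, among them Stmn3 (14.07-fold) and Th (11.67-fold). The part of these cells in the Col25a1 change was not tested. Col26a1 fell 2.09-fold and Col4a1 1.89-fold. The Col4a1 call was lost without any of 3 of the 4 compared arrays (adjusted p = 0.216, 0.164 and 0.0621), that of Col26a1 without either of 2 (0.129 and 0.13) and that of Col2a1 without replicate 1 at E14.5 (0.0787). Col4a4 rose from 5.33 and 20.3 to 42.9 and 57.5 (3.57-fold) and Col4a6 from 30.2 and 91.9 to 238 and 295 (4.69-fold). The 2 E12.5 arrays differed in both rising genes, and without replicate 1 the folds were 2.21 and 2.80 with no call, without replicate 2 5.76 and 7.85.

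The stage changes of testis and ovary were set against each other with an interaction in wild type. No collagen was called in it, beside 0.154% of all genes. Unadjusted p was below 0.05 for 12 of the 34, a count without the share over all genes at that threshold. Col4a1 came nearest, with a testis change 1.42 ± 0.33 larger on the log2 scale (adjusted p = 0.0924, limma), and Col1a1 followed at 1.53 ± 0.40 (adjusted p = 0.115). Without replicate 1 of wild-type ovary at E12.5 some collagens were called, in a fit that leaves 1 array in that group. The calls over all genes in that fit are not set beside them. With the share of opposite-sex RNA as a covariate Col4a1 alone was called.

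**Figure D3:**
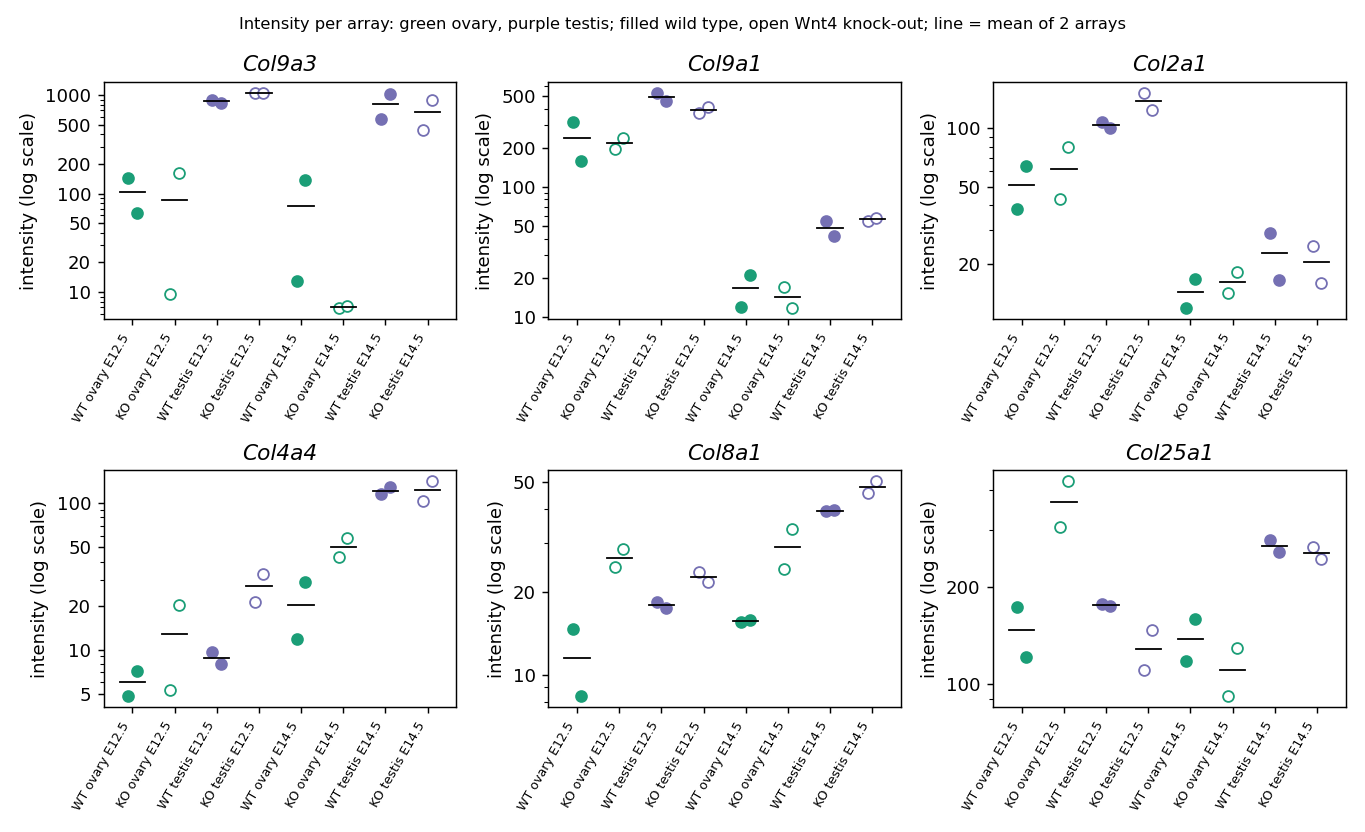
Intensity (log axis) of 6 collagen genes in each array, in green for ovary and purple for testis, filled for wild type and open for Wnt4 knock-out, with a line at the mean of the 2 arrays of a group. Col9a3 separates testis from ovary at both stages, Col9a1 and Col2a1 drop from E12.5 to E14.5 in both sexes, and Col4a4 is highest in testis at E14.5.

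Col9a3 separated every testis array from every ovary array. In the 8 testis arrays it ranged from 447 to 1052 and in the 8 ovary arrays from 6.83 to 163, without overlap. At E14.5 the knock-out ovary arrays held 6.83 and 7.16 and the knock-out testis arrays 447 and 901, 58.1-fold higher (5.86 ± 1.00, adjusted p = 0.00315, limma), a call that held without each compared array. A second Col9a3 probe set differed by 5.40 on the log2 scale. In wild type at E14.5 the values were 12.8 and 138 in ovary and 573 and 1038 in testis, 15.9-fold higher (3.99 ± 1.00, adjusted p = 0.0426). The wild-type call was lost without ovary replicate 1 (5.47-fold), without either testis array (21.3-fold and 11.8-fold), and with the near-identical arrays averaged (adjusted p = 0.0666). Without ovary replicate 2 it was 46.1-fold with an adjusted p of 0.00569.

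The 4 ovary arrays with Y-linked transcripts were also the 4 with the highest Col9a3. Their Col9a3 was 143 and 63.6 (wild type, E12.5), 163 (knock-out, E12.5, replicate 2) and 138 (wild type, E14.5, replicate 2), which is 14.9%, 6.65%, 17.0% and 18.6% of the testis mean at that stage. The Y-linked estimate in these 4 arrays was 18.2%, 6.95%, 17.9% and 19.9%. In the other 4 ovary arrays Col9a3 was 6.83 to 12.8, or 0.923% to 1.73% of the testis mean, and the Y-linked estimate 0.223% to 0.432%. The summed level of 11 Sertoli markers was 933 to 2922 in the 4 ovary arrays with Y-linked transcripts and 508 to 776 in the other 4. In testis it was 5803 to 9102. Within the 4 it did not follow the Y-linked estimate throughout. Wild-type E12.5 replicate 1, at 18.2%, had a sum of 933, and replicate 2, at 6.95%, had 1362. The part of testis RNA in the Col9a3 values of ovary was not tested. With the share of opposite-sex RNA as a covariate the testis-to-ovary difference of Col9a3 was 22.3-fold in wild type (adjusted p = 0.0056) and 43.4-fold in knock-out (adjusted p = 0.00143) at E12.5. Without the covariate it was 8.74-fold (adjusted p = 0.181) and 22.2-fold at E12.5, neither called. The covariate had the same slope in both sexes, though opposite-sex RNA is testis RNA in ovary and ovary RNA in testis. In testis at E14.5 Col9a3 was 1038 and 901 in the replicate 2 arrays, which held Xist, and 573 and 447 in replicate 1. The covariate folds are read with that limit.

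**Figure D4:**
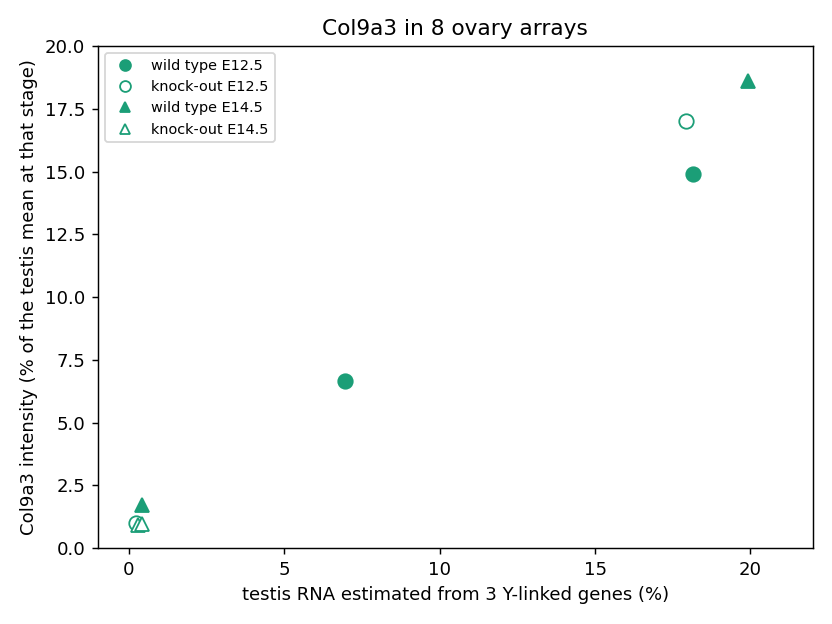
Col9a3 intensity in the 8 ovary arrays as a percentage of the mean of the testis arrays at the same stage (vertical axis) against the share of testis RNA estimated from 3 Y-linked genes (horizontal axis, %), with circles for E12.5, triangles for E14.5, filled symbols for wild type and open ones for Wnt4 knock-out. The 4 arrays with an estimate of 6.95% to 19.9% have Col9a3 at 6.65% to 18.6% of the testis mean, and the other 4 are at 1.73% or lower.

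Other collagens also differed between the sexes at E14.5. In wild type at E14.5, 4 of the 34 were higher in testis and none lower, beside 2.26% of all genes higher and 1.57% lower, with a median of 0.38 against -0.02. The 3 besides Col9a3 were Col4a4, Col8a1 and Col9a1. Col4a4 was 11.8 and 28.9 in ovary and 115 and 129 in testis, 5.53-fold higher (adjusted p = 0.00546, limma). Col8a1 was 15.5 and 15.7 in ovary and 39.1 and 39.5 in testis (2.21-fold, adjusted p = 0.0123). Col9a1 was 11.97 and 21.0 in ovary and 54.3 and 42.0 in testis (2.59-fold, adjusted p = 0.0356). No testis array overlapped an ovary array in these 3 genes, a weak criterion with 2 arrays a group, and its share over all genes is not given. Each lost its call without ovary replicate 1, at 3.83-fold, 2.20-fold and 2.07-fold. Col8a1 and Col9a1 also lost it without either testis array, at 2.22-fold and 2.20-fold for Col8a1 and 2.30-fold and 2.92-fold for Col9a1. The Col9a1 call was lost with the near-identical arrays averaged as well. Fitted on the 4 compared arrays alone, none of the 4 was called. Ovary replicate 2, where Col4a4 was 28.9 and Col9a1 21.0, held Y-linked transcripts at 19.9% of the testis level. Testis replicate 2 held Xist at 22.8% of the ovary level. The part of opposite-sex RNA in these folds was not tested.

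In knock-out gonads at E14.5, 5 collagens were higher in testis and none lower, beside 3.84% and 1.49% of all genes, with a median of 0.23 against 0.02. Besides Col9a3 these were Col9a1, Col25a1, Col4a1 and Col4a2. Col9a1 was 16.9 and 11.6 in ovary and 55.1 and 57.6 in testis (3.34-fold, adjusted p = 0.00648, limma). Its second probe set differed by 0.18 on the log2 scale. Col25a1 was 91.8 and 129 in ovary and 266 and 245 in testis (2.29-fold, adjusted p = 0.0191). Col4a1 and Col4a2, the head-to-head pair, were 1.83-fold and 1.97-fold higher (adjusted p = 0.0497 and 0.0353), calls that ended at 0.0768 and 0.0581 with the near-identical arrays averaged. Col4a1 and Col4a2 lost the call whichever compared array was left out, and Col9a1 and Col25a1 on leaving out some of these arrays.

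At E12.5 no collagen differed between wild-type testis and ovary at the threshold, beside 0.154% of all genes higher and 0.454% lower. Unadjusted p was below 0.05 for 16 of the 34. The share over all genes at that threshold is not given, so this count is not read as a collagen result. The median was -0.35 against -0.11. Col1a1 was 1774 and 4263 in ovary and 1426 and 1284 in testis (2.03-fold lower, adjusted p = 0.127, limma). Without ovary replicate 1, the array with lower Col1a1, more collagens were called, Col1a1 among them. That fit rests on 1 ovary array, and its calls over all genes are not set beside it. The array that then stands alone for the group is ovary replicate 2, whose 3′ to 5′ ratio was 1.76, and whose Col15a1, a basement-membrane-zone collagen, was 152 against 23.6 in replicate 1. In knock-out gonads at E12.5, Col25a1 was 308 and 426 in ovary and 111 and 147 in testis, 2.78-fold lower in testis (adjusted p = 0.0191). It was the one call, beside 0.422% of all genes higher and 0.722% lower, and it ended without the arrays of high 3′ to 5′ ratio (2.85-fold, adjusted p = 0.0916). The nerve sum was 800 and 372 in these ovary arrays and 232 and 130 in the testis arrays, and the muscle sum 492 and 1193 against 227 and 128. Col9a2, the remaining type IX chain, ranged from 12.3 to 40.2 in ovary and 47.2 to 87.2 in testis at E12.5.

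Loss of Wnt4 changed no collagen at the threshold in limma in any of the 4 comparisons. In ovary at E12.5 the calls over all genes were 0.187% higher and 0.105% lower, and in ovary at E14.5 0.203% and 0.341%. In E12.5 testis they were 0.0324% higher and 0.00811% lower, in E14.5 testis 0% and 0.00811%. Unadjusted p was below 0.05 for 4, 3, 6 and 0 of the 34 in that order, again without the share over all genes. The medians of the 34 were 0.25, -0.03, 0.30 and -0.07, against 0.03, -0.02, 0.10 and 0.03 over all genes. With 2 arrays a group the fit recovered 45 to 52 of 100 simulated 2-fold changes and 87 to 90 of 100 4-fold changes in these comparisons, so smaller effects were often not detectable.

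The nearest to a call was Col25a1 in ovary at E12.5. It was 174 and 121 in wild type and 308 and 426 in the knock-out, 2.45-fold higher (1.30 ± 0.27, adjusted p = 0.0697, limma). In testis at E12.5 it was 178 and 175 in wild type and 111 and 147 in the knock-out, and the difference between the 2 effects was -1.75 ± 0.38 (adjusted p = 0.145), beside 0.114% of genes called in that interaction. Markers of skeletal muscle and of nerve were high in the same knock-out ovary arrays: the summed level of 8 muscle genes was 492 and 1193 there and 112 and 155 in wild type, with Actc1 at 295 and 641 against 45.0 and 80.8. The summed level of 5 nerve markers was 800 and 372 against 291 and 187. Within the knock-out pair Col25a1 was higher in the array with the lower nerve sum and the higher muscle sum. Wild-type testis at E12.5 had nerve sums of 483 and 490 and muscle sums of 357 and 370, with Col25a1 at 178 and 175. The part of these cells in the Col25a1 values was not tested.

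Col8a1 followed in ovary. It was 14.6 and 8.35 in wild type and 24.5 and 28.6 in the knock-out at E12.5 (2.01-fold, adjusted p = 0.0900, limma), and 15.5 and 15.7 against 24.1 and 33.9 at E14.5 (1.66-fold, adjusted p = 0.318). In testis at E12.5, 2 collagens were called when the arrays of high 3′ to 5′ ratio were left out, Col1a2 and Col4a2, and 4 with array weights, Col4a2, Col4a4, Col6a3 and Col14a1. Each of these comparisons uses the near-identical wild-type pair, and the calls over all genes in these fits are not set beside them. The remaining interactions called no collagen, beside 0%, 0% and 0.00811% of all genes. Col1a1 differed 1.01-fold to 1.38-fold between genotypes.

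Genes that build, process or bind collagen were counted from lists. Of 18 tested synthesis enzymes and chaperones 1 rose in wild-type testis between the stages, P4ha2, a prolyl hydroxylase subunit (53.7 to 158, 2.78-fold, adjusted p = 0.00419, limma), and none fell. Over all genes 6.73% rose there, so this count is near the background. In knock-out ovary P3h1 rose and P4ha3 fell. Of 6 processing and cross-linking genes Lox, the enzyme that cross-links collagen, rose in all 4 stage comparisons. It went from 101 to 595 in wild-type ovary and from 101 to 677 in wild-type testis (5.70-fold and 6.47-fold, adjusted p = 9.27e-05 and 6.44e-05), and 4.18-fold and 4.86-fold in knock-out ovary and testis. Pcolce, which enhances procollagen cleavage, rose 1.65-fold in wild-type testis. The collagenase inhibitors Timp2 and Timp3 rose 1.92-fold and 2.34-fold there, 2 of 8 in their list, and of 5 receptors Ddr1 rose 1.60-fold, counts too small to read against the 6.73%.

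Several collagen-binding proteoglycans and glycoproteins rose with stage in ovary and in testis. Of 12 tested, 6 rose in wild-type ovary, 8 in wild-type testis, 6 in knock-out ovary and 6 in knock-out testis, beside 2.51%, 6.73%, 5.33% and 2.77% of all genes, and none fell. The remaining 6, 4, 6 and 6 did not pass the test. Dcn, decorin, went from 1445 to 4467 in wild-type ovary and from 1339 to 3350 in wild-type testis (3.09-fold and 2.50-fold, adjusted p = 3.81e-05 and 0.000132, limma). Lum, Ogn, Aspn and Thbs2 rose in all 4 comparisons too. Several marker sums differed between the stages too. For interstitial and stromal markers the summed level of 9 of them was 12870 to 16730 at E12.5 and 18190 to 23120 at E14.5, and this list includes Dcn and Lum. In testis the sum of 4 fetal Leydig markers was 291 to 1341 at E12.5 and 6969 to 12410 at E14.5. The erythroid sum over 4 genes was 34270 to 42480 in the E12.5 arrays and 13190 to 23870 in the E14.5 arrays. In wild-type testis the germ-cell sum over 6 genes went from 2116 and 2067 to 7089 and 9287, and the nerve sum from 483 and 490 to 107 and 90.7. The part of these cell types in the collagen changes was not tested.

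The genes that accompany types II and IX in cartilage were in part dim. Acan, Matn1, Matn3 and Comp, defining cartilage matrix genes, lay between 2.99 and 10.9 in every array and did not pass the filter. Sox9 was 11.1 to 56.2 in ovary and 95.1 to 114 in testis at E14.5, 3.79-fold higher in wild-type testis (adjusted p = 0.0435, limma) and 5.17-fold in knock-out testis (adjusted p = 0.0102). At E12.5 it was 32.6 to 94.9 in ovary and 112 to 148 in testis. Hapln1, a hyaluronan link protein, fell with stage in wild-type ovary from 531 to 239 (2.28-fold, adjusted p = 0.0412), and in both knock-out tissues. The summed level of 8 cartilage and bone markers, a list that includes Hapln1, was 474 to 600 in the E12.5 arrays and 220 to 425 in the E14.5 arrays. Most of it was Hapln1 where the 2 can be set side by side. Wild-type ovary at E12.5 had sums of 599.9 and 572.5, beside the Hapln1 mean of 531. The sum is thus no separate measure of cartilage and bone cells. The part of such cells in the falls of Col2a1 and Col9a1 was not tested. Cnmd, which encodes chondromodulin, and Aspn were higher in knock-out than in wild-type ovary at E14.5, at 98.7 against 12.6 (adjusted p = 0.0064) and 330 against 49.1 (adjusted p = 0.03).

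Col12a1 varied widely between arrays of one group, at 30.7 and 392 in wild-type ovary at E14.5, and no comparison called it. Col4a5, Col6a4, Col7a1, Col9a2, Col11a1, Col15a1, Col18a1, Col20a1, Col22a1 and Col27a1 also passed no comparison. Col11a1, a fibrillar chain, ranged from 254 to 529 and Col18a1, the source of endostatin, from 809 to 1947. Col20a1, Col22a1 and Col6a4 passed the filter with at most 12.1 in any array. The 8 genes that did not pass it, Col10a1, Col11a2, Col17a1, Col19a1, Col24a1, Col4a3, Col5a3 and Col6a5, lay between 2.55 and 10.7 in all 16 arrays, near the array background. Of 21 collagens with several probe sets above the filter, 18 had all sets on the same side of zero in the wild-type testis stage comparison.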

How the data were processed

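The deposited values are the authors' normalized signal intensity per probe set on a linear scale, and the submitters' processing notes name MAS5 without a version; array means were 272 to 288. Samples were grouped by genotype, source tissue and stage from the labels, with 2 arrays in each of 8 groups. Of 45101 probe sets, 64 control sets were left out, 34945 had 1 gene symbol (34741 updated by Entrez identifier) and 932 had several and were not named; the annotation dates from 2016. Intensities were taken as log2(intensity + 4), filtered as described (25596 probe sets kept), and fitted for all 16 arrays together in limma 3.58.1 under R 4.3.3 with an intensity trend in the variance (8 residual and 5.292 prior degrees of freedom). The moderated test was two-sided, and p was adjusted by Benjamini-Hochberg over 12332 genes, threshold 0.05. Tests on simulated data recovered 38 to 52 of 100 2-fold and 85 to 93 of 100 4-fold changes, with 2.99% to 8.67% of calls false, over these comparisons. The number of arrays limits the precision.

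Named genes were all collagens called in a comparison, those nearest the threshold where none was called, and called genes of the pathway lists. The collagens, the pathway and marker lists and the comparisons were chosen with earlier results of these data known, and the 2 stage comparisons within knock-outs were chosen once values were known. Opposite-sex RNA was estimated in ovary from Eif2s3y, Kdm5d and Uty and in testis from Xist, relative to the other sex at that stage. As a covariate it had the same slope in both sexes. Replicate numbers were not used to pair samples in the main fit. Alternatives covered the pseudocount, filter, scaling, variance trend, array weights, probe-set choice, a replicate block, the arrays fitted and each array left out. Averaging the near-identical pair, the opposite-sex covariate and leaving out arrays of high 3′ to 5′ ratio were chosen after seeing the data. Col28a1 and Col6a6 were not analysed here. Figures were drawn with matplotlib 3.10.9 under Python 3.11.15.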

Additional observations from a re-analysis of the deposited data

How the results depend on the processing

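No called collagen change reversed under any alternative. Collagens called between testis and ovary in knock-out at E12.5 (1 as reported) numbered 2 with a pseudocount of 16, without the filter, with quantile normalization, with trimmed mean scaling and with array weights, 5 with the opposite-sex covariate, and 0 with only the compared arrays or without the arrays of high 3′ to 5′ ratio. In wild type at E12.5 (0 as reported) the covariate gave 1. In wild type at E14.5 (4) there were 0 with only the compared arrays, 2 with the near-identical pair averaged and 8 without the high-ratio arrays. In knock-out at E14.5 (5) there were 3 without the variance trend, 9 with array weights and 3 with the pair averaged. The stage change in wild-type ovary (5) gave 3 without the trend, 1 with array weights, 1 with only the compared arrays and 3 with the pair averaged, and in wild-type testis (19) 12 with the pair averaged. In knock-out testis (9) it gave 14 with array weights and 5 without the high-ratio arrays. Knock-out effects in testis at E12.5 (0) numbered 4 with array weights and 2 without the high-ratio arrays, and interactions (0) 1 with the covariate. The cause of these changes was not tested. All counts here and in the next paragraph are of collagens alone, without the calls over all genes in the same fits. Leaving out 1 array leaves 1 array in its group.

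Leaving out 1 array at a time gave 0 to 13 calls between the sexes in wild type at E12.5, 0 to 5 at E14.5, 0 to 5 and 1 to 5 in knock-out at those stages, 1 to 6 for the stage change in wild-type ovary, 9 to 20 in wild-type testis, 3 to 12 in knock-out ovary, 2 to 13 in knock-out testis, 0 to 7 for interactions and 0 to 0 for the 4 knock-out effects. The 13 and the 7 came without wild-type ovary replicate 1 at E12.5, the 9 without wild-type testis replicate 2 at E12.5, and the 12 without either wild-type ovary array at E12.5.

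With the replicate number as a block, the sex comparison in knock-out at E12.5 gave 3 calls (Col9a2 and Col9a3 besides Col25a1), and 48 of 50 calls over all comparisons remained. Deviations of same-numbered samples correlated at -0.656 to 0.581 over 28 pairs of groups (median -0.00397), which shows no pairing common to all groups. At E14.5 the arrays that held opposite-sex RNA were all replicate 2. Whether same-numbered samples of some groups share a batch was not tested. With 2 arrays a group, small changes and dim probe sets are the least certain.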
